A study of Mus musculus with 37 samples.

Results

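The livers described here came from 9 male mice, 4 given 5 mg/kg bw/day of HFPO-DA by oral gavage and 5 given the deionized water vehicle. They were chosen by their labels for sex and treatment from 37 mice of both sexes, and their genes were compared in a fit of all 19 males. HFPO-DA (hexafluoropropylene oxide dimer acid) is a short-chain perfluorinated ether acid used in making fluoropolymers. All mice were wild-type parents of the outbred Crl:CD1(ICR) stock. The males were about 6 weeks old when dosing began, and received 84 to 85 daily doses over 70 days before mating and 14 days of cohabitation. Of 25 males per dose in the reproduction study, 5 were assayed, and the authors left out 1 of the 5 males at 5 mg/kg for its sequencing quality. The other males received 0.1 or 0.5 mg/kg (5 mice each). Fixed liver sections 4 to 6 µm thick were assayed by TempO-Seq, in which pairs of short probes are ligated on their target transcript, amplified and counted. Since whole sections were read, fewer cells of a type and less RNA per cell cannot be told apart.

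PPARα is a nuclear receptor that hepatocytes use to sense fatty acids. When a ligand binds, it pairs with RXR, binds direct repeats of the letters AGGTCA in DNA and turns on genes for taking up, activating and oxidizing fatty acids in peroxisomes, mitochondria and the endoplasmic reticulum. In rodents, lasting activation enlarges hepatocytes and multiplies their peroxisomes. Perfluorinated acids resemble fatty acids and are known ligands of this receptor. The genes below are ordered by their role, from the receptors to fatty acid handling, then to the proteins the liver secretes and the enzymes of bile acid, drug, amino acid and glucose metabolism. The comparison asks which of these transcripts a dose of 5 mg/kg raised or lowered in males.

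Levels are given as CPM, the counts scaled by edgeR to normalized library sizes, in the order of replicates 1 to 5 for the vehicle males and 1 to 4 for the males at 5 mg/kg. Each log2 fold change sets treated against vehicle males, and a gene was called raised or lowered when the adjusted p of its most counted probe was under 0.10 (quasi-likelihood test of edgeR, with the Benjamini-Hochberg method applied over 16103 probes). The labels number animals and name no litter, cage or batch, so each p measures the spread between these mice. Gene coordinates are those of GENCODE release 21 (GRCm38).

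The libraries were not equal in depth. Total counts were 6947711 to 9365709 in the vehicle males and 4147445, 9098192, 2101495 and 6088425 at 5 mg/kg (exact permutation test, two-sided, p = 0.0952, adjusted p = 0.127 over 3 measures). Probes with at least 1 count numbered 14630 to 17917 with vehicle and 11446 to 14939 at 5 mg/kg (exact permutation test, two-sided, p = 0.0476, adjusted p = 0.127). Treated replicate 3 had the fewest counts and stood apart on the first principal component, where it scored 55.4 beside 34.9 to 37.8 for the other treated males and -20.9 to -16.0 for the vehicle males. Vehicle replicate 2 stood apart in another way. Transcripts of acute phase and plasma carrier proteins took 14.7% of its counts, against 3.33% to 3.82% in the other vehicle males and 2.66% to 3.20% at 5 mg/kg. Serum amyloid A transcript Saa1, singled out after its values were seen, had 95.2, 54371, 253, 134 and 190.4 CPM in the vehicle males and 215, 119, 109.6 and 337 CPM at 5 mg/kg. The counts of each gene group are therefore also given without these 2 mice where they moved by more than 1.5 times.

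**Figure D1:**
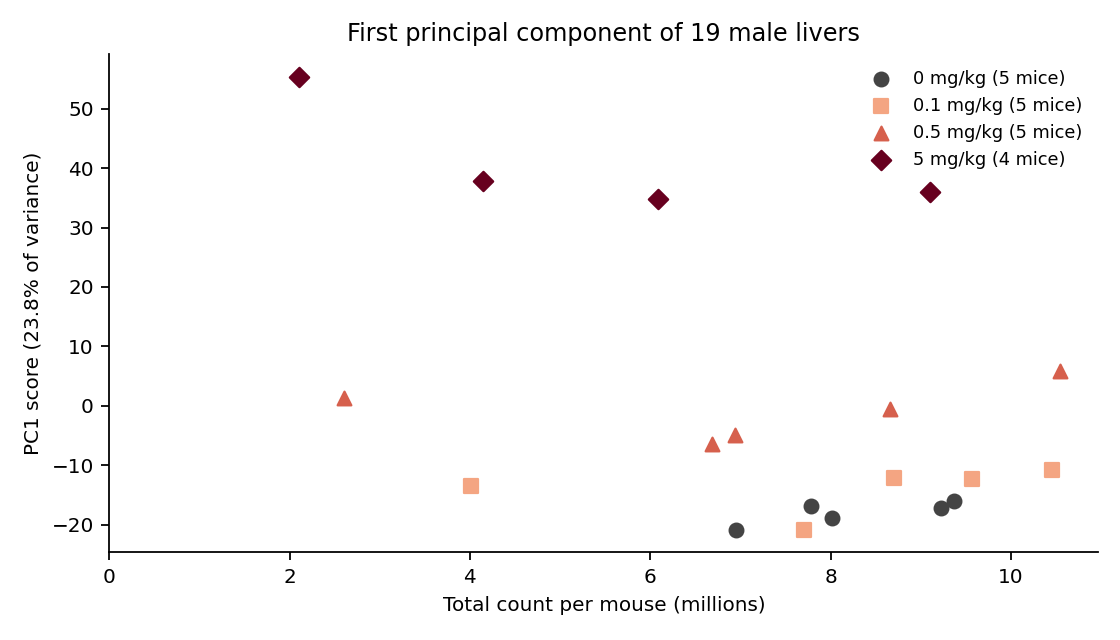
Score of each of the 19 males on the first principal component (vertical axis, 23.8% of the variance of the 500 most variable probes) against its total count (horizontal axis), with 1 symbol per dose. All 4 males at 5 mg/kg scored from 34.9 to 55.4, above the other 15 males, and the highest score belonged to the library of 2101495 counts.

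The marker genes of hepatocytes marked these samples as liver, with albumin (Alb) at 6743 ± 1762 CPM with vehicle (SD, n = 5) and 5979.8 ± 529 CPM in treated males (SD, n = 4) and transthyretin (Ttr) at 4924 ± 958 CPM with vehicle (SD, n = 5) and 3990.4 ± 470.1 CPM in treated males (SD, n = 4). Neither was called, but 8 of the 12 hepatocyte markers tested were lowered and 0 raised, and the list took 5.09% to 6.75% of counts with vehicle and 3.49% to 3.90% in treated males. Of the other cell types, 0 of 13 Kupffer cell and macrophage markers were called, and the list took 0.0140% to 0.0540% of counts with vehicle and 0.0232% to 0.0560% in treated males. Sinusoidal endothelial markers (0 of 14 called) took 0.0712% to 0.0829% of counts with vehicle and 0.0687% to 0.0919% in treated males. Stellate cell and fibroblast markers (0 of 16 called) took 0.0327% to 0.0954% of counts with vehicle and 0.0649% to 0.0998% in treated males. Only vehicle replicate 5 (0.0954%) made this overlap. The other vehicle males, at 0.0327% to 0.0558%, were below every treated male. The totals of all these lists overlapped between the groups, as did those of 2 neutrophil and 4 erythroid markers. Of these markers 0 were called, and 1 of 11 and 3 of 8 listed genes were at 0 in all 9 males. The lymphocyte list (9 tested) had 1 lowered gene, the T cell receptor subunit Cd3d, which had 0 counts in every treated male and 1.29 to 7.96 CPM with vehicle (adjusted p = 0.0176, or 0.102 with its probes summed), and the list took 0.00133% to 0.00356% of counts with vehicle and 0.000703% to 0.00205% in treated males. The cholangiocyte list (4 tested) had 1 raised keratin, Krt23, and the adipocyte list (5 tested) had Fabp4 raised and Car3 lowered. They took 0.00183% to 0.0161% of counts with vehicle and 0.00458% to 0.0120% in treated males, and 0.0934% to 0.244% of counts with vehicle and 0.0542% to 0.120% in treated males. The cholangiocyte value of 0.0161% was that of vehicle replicate 5, with the other vehicle males at 0.00183% to 0.00519%. The part of cell makeup in the results below was not tested.

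Of 11389 genes tested, 948 had at least 1 called probe (8.32%), 312 with a raised and 636 with a lowered probe, and 0 genes had both. On the most counted probe, 867 genes were called (7.61%), 294 raised (2.58%) and 573 lowered (5.03%), and the CPM of the treated and vehicle males did not overlap for 1055 genes (9.26%). Rises of more than 2-fold were seen for 192 called genes and falls of more than 2-fold for 381. The raised genes took 3.65% to 5.18% of all counts with vehicle and 14.1% to 15.7% at 5 mg/kg, while the lowered genes went from 26.1% to 36.3% down to 13.3% to 15.6%. Of 373 called genes with another tested probe, 342 had that probe change in the same direction, 136 had it called in that direction, and 0 had it called in the opposite one. Of the genes named by rule, those called on 1 of 2 probes included Bax, Bhlhe40, Cbr1, Ccnd1, Cd3d, Ces3b, Ghr, Gnmt, Hfe2 and Hsd11b1. So were Idi1, Nsdhl, Pdia6, Pxmp2, Serpina1e, Slc25a4, Slc37a4, Tk1 and Tmprss6. Abcg2, Gpx4, Psmd4 and Slco2b1 were called on 1 of 3 probes, and Igfbp4 and Slc39a14 on 2 of 3. The median log2 fold change of all genes was -0.12. List medians below are to be read beside that value, and list counts beside the 2.58% raised and 5.03% lowered. Among 16103 probes, 1120 were called (6.96%), 365 raised (2.27%) and 755 lowered (4.69%). When DESeq2's size factors replaced the TMM scaling, the median of all genes was -0.01 and 516 probes were raised and 617 lowered.

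**Figure D2:**
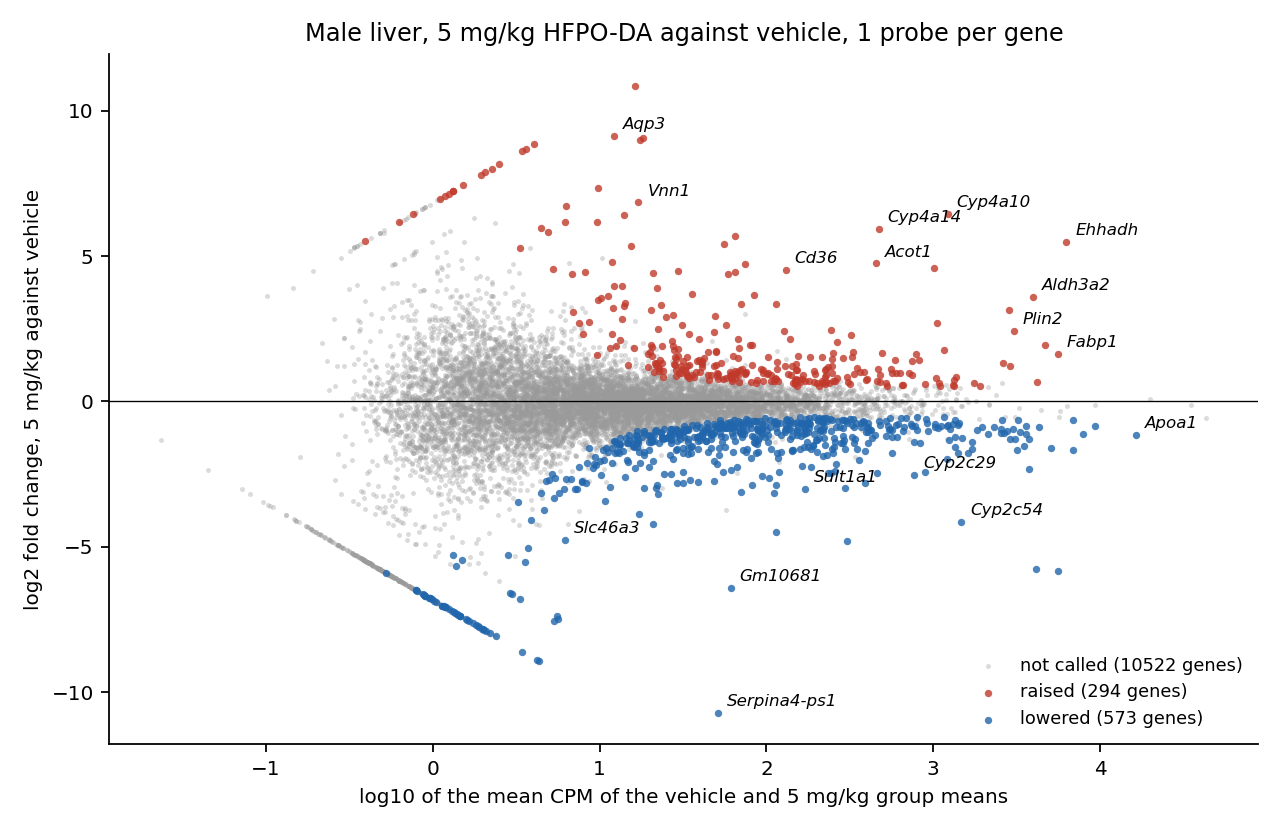
Log2 fold change at 5 mg/kg against vehicle (vertical axis) of 11389 genes by log10 of the mean CPM of both groups (horizontal axis). Points are genes, with 294 raised in red, 573 lowered in blue and 10522 not called in grey, and the straight edges on the left are genes with 0 counts in a whole group, whose fitted fold change is no bound.

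The PPAR receptors themselves were not called. Ppara (chromosome 15, 85734983 to 85802819) had 68.9, 73.2, 55.9, 59.3 and 45.2 CPM in the vehicle males and 39.1, 49.8, 41.4 and 29.3 CPM at 5 mg/kg, a range that overlaps, with a log2 fold change of -0.60 (adjusted p = 0.208), and 0 of its 3 probes were called. With the counts of its probes summed, Ppara fell by 0.72 (adjusted p = 0.0904). Its partner Rxra had 1321 ± 182 CPM with vehicle (SD, n = 5) and 977 ± 208 CPM in treated males (SD, n = 4) (log2 fold change -0.43, adjusted p = 0.235), and 1 of its 2 probes was lowered. The CPM of Rxra did not overlap, at 1166 to 1522 with vehicle and 739 to 1155 in treated males. Ppard was at 9.80 ± 4.13 CPM with vehicle (SD, n = 5) and 12.6 ± 2.19 CPM in treated males (SD, n = 4) and Pparg at 1.60 ± 1.15 CPM with vehicle (SD, n = 5) and 2.10 ± 2.57 CPM in treated males (SD, n = 4), with adjusted p of 0.822 and 0.97. Over the 45 nuclear receptors and coactivators tested, 0 were called on their most counted probe and the median log2 fold change was -0.55, beside -0.12 for all genes.

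Genes for taking up, binding and activating fatty acids were raised more often than lowered. Of 23 such genes tested, 12 were raised and 2 lowered, with a median log2 fold change of 1.16. The fatty acid translocase Cd36 (chromosome 5, 17781690 to 17888801) had 5.35, 25.7, 3.48, 9.92 and 9.94 CPM in the vehicle males and 256, 241, 249 and 254 CPM at 5 mg/kg. Every treated male lay above every vehicle male, and both of its probes were raised (log2 fold change 4.52, SE 0.54, adjusted p = 1.67e-06). Its log2 fold change was 5.12 without vehicle replicate 2. The transport protein Slc27a1, which is mainly known from muscle and fat, had 8.84, 5.47, 7.10, 2.96 and 2.59 CPM in the vehicle males and 185, 115, 78.4 and 69.1 CPM at 5 mg/kg and rose in each of its 3 probes (log2 fold change 4.37, SE 0.44, adjusted p = 7.6e-08). Fabp1, the main fatty acid binding protein of hepatocytes and already abundant with vehicle, had 2724 ± 495 CPM with vehicle (SD, n = 5) and 8487 ± 1262 CPM in treated males (SD, n = 4) (log2 fold change 1.64, SE 0.18, adjusted p = 2.54e-07). Fabp4, the binding protein of adipocytes and macrophages, had 27.6, 14.7, 15.4, 11.3 and 32.4 CPM in the vehicle males and 185, 200.4, 325 and 121 CPM at 5 mg/kg, with no overlap (log2 fold change 3.36, SE 0.45, adjusted p = 7.78e-06). The activating enzymes Acsl1 and Acsl5 rose by 1.32 (adjusted p = 9.04e-05) and 1.39 (adjusted p = 0.00299), and the lowered members, counted as 1 in fits without treated replicate 3 or without vehicle replicate 2, were Acsm1 and the bile acid and fatty acid ligase Slc27a5, with log2 fold changes of -0.95 and -0.98.

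The promoters of Fabp1 and of the lipid droplet gene Plin2 are shown because they hold letters like those PPARα and RXR bind. Both are the 250 bases before the RefSeq start (GRCm38.p6), written 5′ to 3′ on the gene's strand, and capitals mark the match. In Fabp1 (chr6:71199629-71199878, plus strand), AGGNCANAGGNCA matched on the opposite strand, 67 to 55 bases before the start, and in Plin2 (chr4:86670060-86670309, minus strand) AGGTCA matched on the opposite strand, 218 to 213 bases before the start.
Fabp1: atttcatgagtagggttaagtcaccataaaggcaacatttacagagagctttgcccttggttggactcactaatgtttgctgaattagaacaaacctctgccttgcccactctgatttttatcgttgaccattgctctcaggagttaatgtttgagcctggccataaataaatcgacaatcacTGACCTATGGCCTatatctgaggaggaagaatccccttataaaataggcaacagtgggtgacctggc
Plin2: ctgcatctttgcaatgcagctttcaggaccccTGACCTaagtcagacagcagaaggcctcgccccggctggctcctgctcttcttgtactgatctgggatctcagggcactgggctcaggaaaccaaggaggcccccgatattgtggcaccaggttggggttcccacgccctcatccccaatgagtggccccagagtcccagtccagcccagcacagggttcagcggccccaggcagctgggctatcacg
These letters were not more frequent in raised than in lowered genes. Windows of 300 bases, 50 of them after the start, were searched on both strands. AGGNCANAGGNCA, whose letters can include AGGTCA, was in the windows of 1 of 218 raised genes (0.459%), 6 of 451 lowered genes (1.33%), 29 of 8814 tested genes (0.329%) and 122 of 27025 genes in the RefSeq table (0.451%). AGGTCA alone was found for 36 raised genes (16.5%), 102 lowered genes (22.6%), 1364 tested genes (15.5%) and 4900 genes of the table (18.1%).

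Genes of peroxisomal fatty acid oxidation were raised more often than lowered. Of 27 genes tested, 11 were raised and 2 lowered, with a median log2 fold change of 0.79, and the list took 1.25% to 1.69% of counts with vehicle and 4.20% to 4.70% at 5 mg/kg. Ehhadh (chromosome 16, 21761287 to 21787807), the bifunctional enzyme of the peroxisomal spiral, had 419, 191, 219, 301 and 237 CPM in the vehicle males and 11279, 14478, 10565 and 12896 CPM at 5 mg/kg. The lowest treated male was far above the highest vehicle male (log2 fold change 5.49, SE 0.34, adjusted p = 9.94e-12). The thiolase Acaa1b had 12.4 ± 5.73 CPM with vehicle (SD, n = 5) and 129 ± 32.3 CPM in treated males (SD, n = 4) (log2 fold change 3.36, adjusted p = 1.95e-08). It is a near copy of Acaa1a, which rose by 1.64 (adjusted p = 0.000244), and how reads divide between such paralogs is uncertain. The 2 lowered members were Pecr, the trans-enoyl-CoA reductase, and the hydroxyacid oxidase Hao1, with log2 fold changes of -1.85 and -0.90.

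Fewer of the genes that build the organelle were called. Of 25 peroxins and peroxisomal membrane proteins, 7 were raised and 1 lowered, with a median of 0.25. Pex11a, which elongates and divides peroxisomes, had 23.9, 31.3, 14.8, 24.4 and 29.7 CPM in the vehicle males and 107, 115, 96.2 and 123 CPM at 5 mg/kg, with no overlap (log2 fold change 2.15, SE 0.30, adjusted p = 1.66e-05). Abcd3, the importer of branched acyl-CoA, rose by 1.53 (adjusted p = 8.88e-05), while the membrane channel Pxmp2 fell by 0.97 (adjusted p = 0.0017). Without treated replicate 3 the median was 0.48. Catalase, the other classic peroxisomal enzyme, had a log2 fold change of 0.01 (adjusted p = 0.988). Of 21 genes listed as peroxide and superoxide scavengers, 3 were raised, with a median of 0.24. These were Gpx4, Gpx1 and Ucp2, a mitochondrial carrier that is counted again among the carriers below. Without treated replicate 1, Gpx4 had an adjusted p of 0.138.

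Mitochondrial β-oxidation had 15 of 25 tested genes raised and 0 lowered, with a median log2 fold change of 1.01. Cpt1b (chromosome 15, 89416405 to 89425863), the muscle form of the carnitine palmitoyltransferase that admits long-chain fatty acids, had 3.37, 3.11, 1.42, 4.77 and 0 CPM in the vehicle males and 108, 120.1, 77.3 and 133 CPM at 5 mg/kg. It was nearly absent with vehicle and present in each treated male, and 3 of 3 probes were raised (log2 fold change 5.42, SE 0.74, adjusted p = 1.08e-05). The carnitine carrier Slc25a20 rose by 1.42 (adjusted p = 0.000843). Inside the matrix, the isomerase Eci1 had 51.1 ± 7.04 CPM with vehicle (SD, n = 5) and 225 ± 44.2 CPM in treated males (SD, n = 4) (log2 fold change 2.14, SE 0.22, adjusted p = 1.63e-07) and the dienoyl-CoA reductase Decr1 had 236 ± 55.1 CPM with vehicle (SD, n = 5) and 748 ± 57.8 CPM in treated males (SD, n = 4) (log2 fold change 1.66, SE 0.19, adjusted p = 9.05e-07). The liver form of the palmitoyltransferase, Cpt1a, had a log2 fold change of -0.09 (adjusted p = 0.979). Beyond the spiral, 6 of 73 subunits of oxidative phosphorylation were raised (8.22%, beside 2.58% of all genes) and 0 lowered, with a median of 0.22. Ndufab1, the acyl carrier of complex I, rose by 1.36 (adjusted p = 0.00749), Cox7c by 0.92 (adjusted p = 0.00315) and Uqcr11 by 0.75 (adjusted p = 0.0119). With the size factors of DESeq2, 12 of the 73 were raised, and without vehicle replicate 2, 4 were.

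Of 37 mitochondrial carriers and uncoupling proteins, 4 were raised (10.8%) and 2 lowered (5.41%), beside 2.58% and 5.03% of all genes. The median was -0.22, beside -0.12 for all genes. Ucp2, a carrier known for uncoupling respiration, had 26.8, 61.1, 37.2, 24.4 and 49.6 CPM in the vehicle males and 214, 146, 274 and 229.6 CPM at 5 mg/kg, with no overlap (log2 fold change 2.44, SE 0.26, adjusted p = 2.81e-07). The adenine nucleotide carrier Slc25a4, the heart and muscle form, rose by 2.62 (adjusted p = 4.12e-05), with 1 of its 2 probes raised. Without treated replicate 3, 0 of these carriers were lowered, and without vehicle replicate 2, 1 was and the median was -0.11.

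The microsomal enzymes that oxidize the far end of fatty acids included some of the largest rises. Cyp4a10 (chromosome 4, 115518264 to 115533649) had 57.6, 5.60, 27.2, 17.3 and 29.97 CPM in the vehicle males and 3128, 2234, 2329 and 1981 CPM at 5 mg/kg. Its neighbour Cyp4a14 (chromosome 4, 115486200 to 115496142) had 26.1, 0.995, 6.19, 17.9 and 25.1 CPM in the vehicle males and 903, 980.0, 894 and 941 CPM at 5 mg/kg. Both groups were separate for each gene, with log2 fold changes of 6.45 (adjusted p = 2.54e-07) and 5.93 (adjusted p = 5.54e-06). The further copies Cyp4a31 and Cyp4a32 rose by 4.58 (adjusted p = 4.65e-08) and 3.65 (adjusted p = 2.65e-06), whereas Cyp4a12a, the form typical of male liver, had 430.0 ± 162 CPM with vehicle (SD, n = 5) and 457 ± 45.2 CPM in treated males (SD, n = 4) and was not called (log2 fold change 0.09, adjusted p = 0.939). Across the 14 CYP4 genes tested, 5 were raised and 2 lowered (Cyp4f14 and Cyp4v3), with a median of 0.30, or 0.57 without treated replicate 3. Since the Cyp4a genes are close paralogs, the split of counts between them is uncertain. Aldh3a2, the fatty aldehyde dehydrogenase, had 796, 500.2, 327, 822 and 569 CPM in the vehicle males and 7084, 7622, 6606 and 8073 CPM at 5 mg/kg, again without overlap (log2 fold change 3.61, SE 0.24, adjusted p = 3.82e-11).

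Enzymes that split or recycle acyl-CoA followed. Of 21 genes for thioesterases and coenzyme A turnover, 5 were raised and 0 lowered, with a median of 0.50. The cytosolic thioesterase Acot1 had 67.1, 19.6, 43.7, 16.6 and 13.8 CPM in the vehicle males and 847, 1027, 684 and 926 CPM at 5 mg/kg (log2 fold change 4.76, SE 0.43, adjusted p = 1.59e-08). The mitochondrial Acot2 and the peroxisomal Acot3, its neighbours on chromosome 12 and close paralogs whose counts could be shared, rose by 5.70 (adjusted p = 1.92e-06) and 4.48 (adjusted p = 0.000843). Their log2 fold changes were 6.50 without vehicle replicate 4 for Acot2 and 5.58 without vehicle replicate 1 for Acot3. Vnn1, the pantetheinase that releases cysteamine from a breakdown product of coenzyme A, had a count in 1 vehicle male only and 49.5, 26.1, 26.5 and 33.2 CPM at 5 mg/kg (adjusted p = 0.000167).

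Lipid droplet genes had 7 of 23 members raised and 1 lowered, with a median of 0.75. Plin2, the coat protein of hepatocyte droplets whose promoter is printed above, had 1015, 964, 655, 1357 and 761 CPM in the vehicle males and 4239, 5268, 4671 and 6370.4 CPM at 5 mg/kg, with no overlap, and rose on 3 of 3 probes (log2 fold change 2.43, SE 0.27, adjusted p = 3.34e-07). Hsd17b11, a dehydrogenase of the droplet surface, had 576 ± 131 CPM with vehicle (SD, n = 5) and 5135 ± 695 CPM in treated males (SD, n = 4) (log2 fold change 3.16, SE 0.21, adjusted p = 3.64e-11). Mgll, the monoacylglycerol lipase, rose by 2.46 (adjusted p = 2.45e-08). Cidea, a droplet fusion protein typical of brown fat, had 0 counts in each vehicle male and 4.30, 5.84, 3.27 and 3.06 CPM at 5 mg/kg (adjusted p = 0.0497, or 0.101 without vehicle replicate 1). Against a floor of 3 counts over the group it was 67.49-fold higher, per total count before TMM scaling. The lowered member was Lpin1, the phosphatidate phosphatase, which had 686 ± 213 CPM with vehicle (SD, n = 5) and 97.2 ± 60.6 CPM in treated males (SD, n = 4) (log2 fold change -2.81, SE 0.51, adjusted p = 0.000517).

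Lipid synthesis genes were also raised more often than lowered. Of 29 genes for lipogenesis and triglyceride synthesis, 8 were raised and 2 lowered, with a median of 0.33, or 6 raised and 4 lowered without vehicle replicate 2. Malic enzyme (Me1), a source of NADPH, had 165, 71.7, 102, 148 and 65.2 CPM in the vehicle males and 587, 668, 449.6 and 431 CPM at 5 mg/kg, without overlap (log2 fold change 2.27, SE 0.28, adjusted p = 2.64e-06). The desaturase Scd1 had 528 ± 290.0 CPM with vehicle (SD, n = 5) and 1792 ± 446 CPM in treated males (SD, n = 4) (log2 fold change 1.76, adjusted p = 0.00258). Dgat2, which makes triglyceride, fell by 1.23 (adjusted p = 0.00131). Without vehicle replicate 2, 6 members were raised and 4 lowered. For cholesterol synthesis, 5 of 26 genes were raised and 0 lowered, with a median of 0.37. Pmvk of the mevalonate pathway rose by 1.10 (adjusted p = 0.00312), Nsdhl by 0.94 (adjusted p = 0.032), with an adjusted p of 0.115 without treated replicate 1, and Idi1 by 0.92 (adjusted p = 0.0165), with an adjusted p of 0.137 in a fit of all 37 mice. Of 9 genes for ketone bodies, 1 was raised, the monocarboxylate and ketone exporter Slc16a1, which had 120.4 ± 26.2 CPM with vehicle (SD, n = 5) and 378 ± 85.03 CPM in treated males (SD, n = 4) (log2 fold change 1.65, adjusted p = 3.19e-05).

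**Figure D3:**
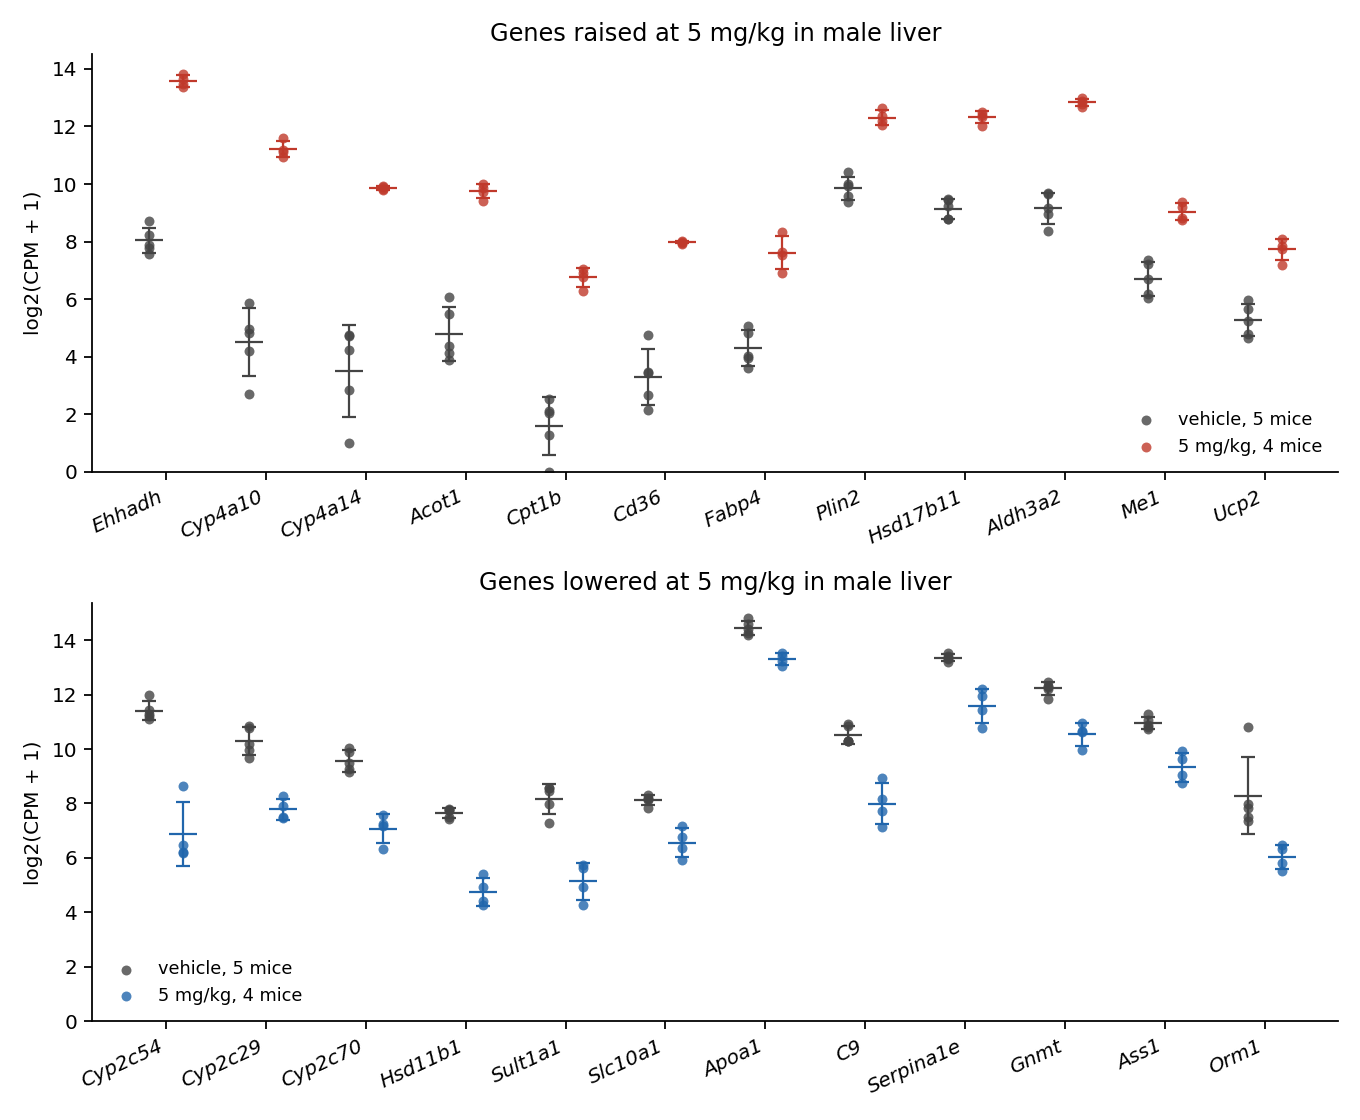
Log2(CPM + 1) of each male for 12 raised genes (upper panel) and 12 lowered genes (lower panel), with grey points for the 5 vehicle males, coloured points for the 4 males at 5 mg/kg, and bars for the mean and SD. In every gene shown the treated and vehicle males were separate, and for Orm1 the vehicle point far above its group is replicate 2.

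Genes of secreted plasma proteins were lowered more often than raised. For complement, 16 of 30 genes were lowered and 0 raised, with a median log2 fold change of -0.84, and without vehicle replicate 2 the count was 14 with a median of -0.72. The terminal component C9 (chromosome 15, 6445327 to 6498751) had 1859, 1239.6, 1255, 1256 and 1923 CPM in the vehicle males and 486, 283, 139.7 and 213 CPM at 5 mg/kg. Every treated male was below every vehicle male (log2 fold change -2.43, SE 0.28, adjusted p = 6.17e-07), and 3 of 4 probes were lowered. C8a and C8b, which join the same membrane attack complex, fell, with log2 fold changes of -1.77 (adjusted p = 4.84e-06) and -1.68 (adjusted p = 1.26e-06).

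For coagulation and fibrinolysis, 17 of 32 genes were lowered and 0 raised, with a median of -0.76, or 14 lowered and a median of -0.67 without vehicle replicate 2. Factor VII (F7), which starts the tissue factor pathway, had 124, 163, 121, 118 and 115 CPM in the vehicle males and 23.5, 47.96, 16.7 and 42.6 CPM at 5 mg/kg, with no overlap (log2 fold change -1.96, SE 0.27, adjusted p = 1.1e-05). Factor XI (F11) fell by 1.84 (adjusted p = 2.79e-05), and the kininogen Kng1 fell by 1.22 (adjusted p = 0.000244). Fibrinogen β (Fgb) had 1324 ± 360.3 CPM with vehicle (SD, n = 5) and 722 ± 136 CPM in treated males (SD, n = 4) (log2 fold change -0.88, adjusted p = 0.012).

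The acute phase and plasma carrier list had 22 of 33 genes lowered and 1 raised, the thyroxine-binding globulin Serpina7, with a median of -1.19. Much of its size rested on vehicle replicate 2, without which 16 were lowered and the median was -0.68. Saa1, Saa2, Orm2 and Lcn2, singled out after their values were seen, had log2 fold changes of -5.82, -5.75, -4.80 and -4.48 with that mouse, and of 0.22, 1.59, 1.38 and 1.79 without it (adjusted p = 0.977, 0.592, 0.476 and 0.489). Orm1, an acid glycoprotein, had 179, 1788, 252, 227 and 161 CPM in the vehicle males and 87.5, 55.3, 45.00 and 79.2 CPM at 5 mg/kg, so that 1 vehicle male carried most of the vehicle mean, though the groups did not overlap (log2 fold change -2.96, SE 0.54, adjusted p = 0.000592). Without vehicle replicate 2 its log2 fold change was -1.61 (adjusted p = 0.000732). Fetuin-A (Ahsg), which inhibits calcification, had 779.6, 919.9, 997, 966 and 716 CPM in the vehicle males and 387, 399, 507 and 447 CPM at 5 mg/kg, with no overlap (log2 fold change -1.01, SE 0.18, adjusted p = 0.000421). Fetuin-B (Fetub) fell by 1.77 (adjusted p = 4.88e-05), and C-reactive protein (Crp), a constitutive plasma protein in mice, fell by 1.13 (adjusted p = 9.55e-05).

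Of 11 serpins of the antitrypsin and antichymotrypsin clusters, 8 were lowered and 0 raised, with a median of -1.61. Serpina1e (chromosome 12, 103946931 to 103958975), a protease inhibitor, had 11956, 10046, 10939, 10297 and 9369 CPM in the vehicle males and 4676, 3917, 1762 and 2751 CPM at 5 mg/kg. The highest treated male stayed well below the lowest vehicle male (log2 fold change -1.68, SE 0.22, adjusted p = 4.8e-06). Its copies Serpina1b, Serpina1d and Serpina1a had log2 fold changes of -1.61, -1.69 and -2.00, and their near-identical sequences leave the split of counts uncertain. Serpina3m and Serpina11 fell, with log2 fold changes of -2.79 (adjusted p = 0.000252) and -2.81 (adjusted p = 4.12e-05). The pseudogene Serpina4-ps1 had 30.1, 81.8, 338, 60.3 and 0.272 CPM in the vehicle males and a single count in all treated males together, so that the groups were barely separate at vehicle replicate 5 (adjusted p = 0.000657).

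Apolipoproteins and lipoprotein remodelling genes had 10 of 29 lowered and 3 raised (Lpl, Pltp and Mttp), with a median of -0.24. Apoa1, the main protein of high-density lipoprotein, had 28938, 21568, 18919.8, 24839 and 19735 CPM in the vehicle males and 9646, 11668, 8495 and 11064 CPM at 5 mg/kg, with no overlap (log2 fold change -1.16, SE 0.19, adjusted p = 0.000208). Apoa4 and Apom fell, with log2 fold changes of -2.64 (adjusted p = 0.000423) and -2.13 (adjusted p = 0.000714). Apob, which holds low-density lipoprotein together, was not called on its most counted probe (log2 fold change -0.24, adjusted p = 0.57), and 1 of its 2 probes was lowered.

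Genes of bile acid synthesis and uptake were lowered more often than raised. Of 20 genes for synthesis, 9 were lowered and 1 raised (Hsd17b4, shared with peroxisomal oxidation), with a median of -0.97, or 6 lowered and -0.76 without treated replicate 3. Akr1d1, the steroid 5β-reductase of the pathway, had 100.2, 74.9, 53.5, 112 and 73.1 CPM in the vehicle males and 10.6, 23.9, 25.8 and 14.9 CPM at 5 mg/kg, without overlap (log2 fold change -2.14, SE 0.27, adjusted p = 4.14e-06). Cyp2c70, which makes the muricholic acids of mice, had 780.0 ± 215 CPM with vehicle (SD, n = 5) and 141 ± 46.1 CPM in treated males (SD, n = 4) (log2 fold change -2.47, SE 0.27, adjusted p = 2.81e-07). Akr1c6 fell by 1.56 (adjusted p = 1.88e-05), and Cyp7a1, the rate-limiting enzyme, had a log2 fold change of -1.30 (adjusted p = 0.198). Among 21 transporters of bile acids, organic anions and sterols, 7 were lowered and 2 raised, with 4 lowered without treated replicate 3. Slc10a1, which takes bile acids up from blood, had 319, 288, 292, 279 and 227 CPM in the vehicle males and 108, 144, 59.2 and 81.8 CPM at 5 mg/kg, with no overlap (log2 fold change -1.51, SE 0.23, adjusted p = 4.64e-05). Slco2b1 fell by 1.04 (adjusted p = 0.000671), while the efflux pump Abcg2 rose by 2.10 (adjusted p = 0.0028).

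Drug-metabolizing cytochromes fell more often than they rose. In families 1 to 3, 16 of 43 genes were lowered and 2 raised, with a median of -0.74. Cyp2c54 (chromosome 19, 40037940 to 40073827) had 4061, 2182, 2391, 2469 and 2773 CPM in the vehicle males and 88.7, 397, 70.8 and 72.6 CPM at 5 mg/kg. Treated replicate 2 lay above the other treated males and still far below every vehicle male (log2 fold change -4.14, SE 0.43, adjusted p = 1.44e-07). Without that mouse the log2 fold change was -5.17. Cyp2c29 had 1829, 1001, 817, 1159 and 1748 CPM in the vehicle males and 308, 239.5, 175 and 182 CPM at 5 mg/kg, with no overlap (log2 fold change -2.54, SE 0.24, adjusted p = 2.73e-08), and Cyp2c50 fell by 4.23 (adjusted p = 6.31e-07). These Cyp2c genes lie on chromosome 19 and are close paralogs, so their split is uncertain. Cyp2e1, the ethanol-oxidizing form of pericentral hepatocytes, fell by 1.28 (adjusted p = 0.0026) although its groups overlapped, with 8379, 5257, 3455, 4047 and 5386 CPM in the vehicle males and 2505, 3482, 1385 and 1392 CPM at 5 mg/kg. A raised member was Cyp2b9, a form typical of female liver, with 2.79, 1.24, 0.129, 4.51 and 5.31 CPM in the vehicle males and 67.6, 32.7, 22.9 and 43.01 CPM at 5 mg/kg (log2 fold change 3.89, SE 0.71, adjusted p = 0.000581).

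Conjugating enzymes were counted in 2 lists. Of 30 UGTs and sulfotransferases, 9 were lowered and 1 raised, with a median of -0.42. Sult1a1, the phenol sulfotransferase, had 378, 376, 348, 155 and 251 CPM in the vehicle males and 29.6, 52.2, 18.1 and 48.7 CPM at 5 mg/kg, without overlap (log2 fold change -3.00, SE 0.31, adjusted p = 1.51e-07). Ugt2b1 fell by 1.76 (adjusted p = 3.2e-05), while Ugdh, which makes the glucuronic acid donor, had 1737 ± 236 CPM with vehicle (SD, n = 5) and 4020.0 ± 787 CPM in treated males (SD, n = 4) (log2 fold change 1.21, adjusted p = 7.22e-05). Glutathione S-transferases and NRF2 targets had 4 of 37 raised and 6 lowered, with a median of 0.29, or 4 raised, 4 lowered and a median of 0.10 without treated replicate 3. Gstp1 and Gstm2 fell, with log2 fold changes of -1.29 (adjusted p = 0.00136) and -1.63 (adjusted p = 0.000482), and the carbonyl reductase Cbr1 rose by 1.20 (adjusted p = 0.00066). Among 30 carboxylesterases and aldehyde dehydrogenases, 8 were lowered and 3 raised. Ces1c, the carboxylesterase of mouse plasma, had 2575 ± 492 CPM with vehicle (SD, n = 5) and 828 ± 183 CPM in treated males (SD, n = 4) (log2 fold change -1.64, SE 0.19, adjusted p = 1.25e-06), and Ces3b fell by 2.24 (adjusted p = 8.99e-06).

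Amino acid catabolism had 29 of 60 genes lowered and 1 raised, the cysteine sulfinate decarboxylase Csad, with a median of -0.81, or 20 lowered and a median of -0.70 without treated replicate 3. Gnmt, which disposes of excess methyl groups, had 5132, 4781, 5710.0, 5008 and 3702 CPM in the vehicle males and 1566, 1986, 986 and 1599.5 CPM at 5 mg/kg, with no overlap (log2 fold change -1.67, SE 0.22, adjusted p = 8.67e-06). The urea cycle enzyme Ass1 had 2164, 2519, 1864, 1684 and 1805 CPM in the vehicle males and 529, 961, 425 and 798 CPM at 5 mg/kg, also separate (log2 fold change -1.57, SE 0.25, adjusted p = 0.000116). Otc, which makes citrulline, fell by 1.77 (adjusted p = 3.92e-05), and Cps1, the entry enzyme of the cycle, had 28.4 ± 12.8 CPM with vehicle (SD, n = 5) and 10.8 ± 1.60 CPM in treated males (SD, n = 4) on its probe (adjusted p = 0.0339, or 0.127 without vehicle replicate 3 and 0.101 without treated replicate 1). Cdo1 and Hal, which degrade cysteine and histidine, fell, with log2 fold changes of -1.86 (adjusted p = 6.07e-06) and -1.71 (adjusted p = 8.32e-05).

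Glucose metabolism was mixed, with 11 of 41 genes lowered and 4 raised and a median of -0.34, or 7 lowered without treated replicate 3 and 2 raised without vehicle replicate 2. Slc37a4, which carries glucose-6-phosphate into the endoplasmic reticulum for glucose release, had 122, 109, 100.4, 123 and 96.2 CPM in the vehicle males and 37.5, 15.4, 19.2 and 19.2 CPM at 5 mg/kg, with no overlap (log2 fold change -2.27, SE 0.29, adjusted p = 4.84e-06). Ugp2, on the path to glycogen, fell by 1.32 (adjusted p = 7.21e-05), and the gluconeogenic Pck1 fell by 1.30 (adjusted p = 0.00387). Aqp3, a channel for water and glycerol, had 1 count in all vehicle males together and 37.3, 10.2, 32.3 and 17.4 CPM at 5 mg/kg, raised on both of its probes (adjusted p = 0.000592).

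Genes known for a place in the lobule were counted at both ends. Among periportal genes, 18 of 30 were lowered and 0 raised, with a median of -1.14, and among pericentral genes 8 of 26 were lowered and 1 raised, with a median of -1.08, or -0.67 without vehicle replicate 2. Members such as Ass1, Hal, Cps1, Cyp2c29, Cyp2c50 and Cyp2e1 also stand in the lists above, so these counts are not separate from those. Pigr, the receptor that carries immunoglobulin A into bile, had 140.5, 134, 129.9, 102 and 127 CPM in the vehicle males and 43.4, 4.90, 2.90 and 7.14 CPM at 5 mg/kg, with treated replicate 1 above the other treated males (log2 fold change -3.12, SE 0.47, adjusted p = 4.62e-05). Without that mouse the log2 fold change was -4.61. Slc1a2, a glutamate transporter next to central veins, had 138, 222, 154, 87.8 and 122 CPM in the vehicle males and 17.4, 17.3, 13.1 and 30.2 CPM at 5 mg/kg, lowered on 4 of 4 probes (log2 fold change -2.88, SE 0.36, adjusted p = 3.35e-06).

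Genes with a known sex bias in mouse liver were counted apart. Of 37 male-biased genes, 19 were lowered and 1 raised (Cyp4a12b, adjusted p = 0.0834), with a median of -1.03, or 20 lowered and 0 raised without vehicle replicate 2. Lowered members such as C8a, C8b, Serpina1e, Ces3b, Ugt2b1 and Gstp1 also stand in the lists above, so these counts are not separate from those. Hsd3b2, of steroid metabolism, had 247, 73.2, 219, 277 and 180.2 CPM in the vehicle males and 24.7, 7.92, 26.5 and 30.9 CPM at 5 mg/kg, with no overlap and both probes lowered (log2 fold change -3.16, SE 0.39, adjusted p = 2.6e-06). Gm10681, a gene model named by the rule on size (chromosome 3, 98552542 to 98588807), had 147, 30.8, 94.2, 171 and 161 CPM in the vehicle males and 5.88, 0, 0.363 and 0.146 CPM at 5 mg/kg (log2 fold change -6.41, SE 0.79, adjusted p = 2.64e-06). Without treated replicate 1 the log2 fold change was -9.91. The male-biased list, which includes the major urinary proteins, took 7.69% to 16.8% of counts with vehicle and 15.6%, 9.25%, 6.50% and 6.33% at 5 mg/kg, so its total overlapped. Of 32 female-biased genes, 7 were raised and 2 lowered (1 without treated replicate 3), with a median of 0.04 that was -0.05 without treated replicate 3 and 0.50 without vehicle replicate 2. Those raised were Cyp4a10, Cyp4a14, Cd36, Acot3, Hao2, Cyp2b9 and Rtn4, of which the first 5 also stand in the lists of fatty acid metabolism above. Without vehicle replicate 2 the adjusted p of Hao2 was 0.103.

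Hormone and carrier genes of the growth hormone and IGF axis had 3 of 23 lowered and 0 raised, with a median of -0.36. The growth hormone receptor (Ghr) had 144, 119, 59.5, 109 and 141 CPM in the vehicle males and 55.9, 56.4, 22.1 and 65.9 CPM at 5 mg/kg, with an overlap at vehicle replicate 3 (log2 fold change -1.18, SE 0.29, adjusted p = 0.0101). Igfbp4 fell by 0.85 (adjusted p = 0.00326). Igfals had 0 counts in every treated male and 0 to 3.61 CPM with vehicle, at an adjusted p of 0.0996 that was above 0.10 without any 1 of 8 of the 9 males (0.115 to 0.189).

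Hepatokines had 5 of 20 lowered and 0 raised, with a median of -0.83, among them Lect2 at -1.08 and angiotensinogen (Agt) at -1.10. For iron handling, 3 of 25 were lowered and 2 raised. The zinc and iron importer Slc39a14 fell by 1.58 (adjusted p = 0.000192) and the protease Tmprss6, which restrains hepcidin, fell by 0.74 (adjusted p = 0.00434), while Hfe2 (hemojuvelin) rose by 1.08 (adjusted p = 0.008). Transferrin (Trf) had 3221, 5169.5, 2601, 2702 and 3013 CPM in the vehicle males and 1520.3, 1852, 1494 and 2049.6 CPM at 5 mg/kg, highest in vehicle replicate 2 (log2 fold change -0.95, SE 0.19, adjusted p = 0.00196).

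Genes outside these lists were also among the called differences. Hsd11b1, which regenerates active glucocorticoid, had 220.3, 216, 172, 218 and 179 CPM in the vehicle males and 40.9, 29.6, 18.1 and 20.4 CPM at 5 mg/kg, with no overlap (log2 fold change -2.88, SE 0.25, adjusted p = 6.51e-09). Slc46a3, a lysosomal transporter, had 15.5, 16.5, 8.39, 10.3 and 9.40 CPM in the vehicle males and 0, 1.15, 0 and 0.146 CPM at 5 mg/kg (log2 fold change -4.76, SE 0.71, adjusted p = 3.92e-05). Without treated replicate 2 the log2 fold change was -7.12. Among the steepest rises outside the lists, the matrix protein Spon2 had 5.59, 1.74, 8.77, 3.87 and 6.67 CPM in the vehicle males and 94.99, 153, 192 and 133 CPM at 5 mg/kg (log2 fold change 4.74, SE 0.48, adjusted p = 9.83e-08). The annexin Anxa13 had 1.40, 0, 0, 0 and 27.1 CPM in the vehicle males and 150.0, 156, 68.2 and 123 CPM at 5 mg/kg, with vehicle replicate 5 apart from the other vehicle males (adjusted p = 0.0283, or 0.162 in a robust fit and 0.114 by DESeq2). Without that mouse its log2 fold change was 8.36 in place of 4.45.

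The lists of other processes had few called genes. Over all genes tested, 2.58% were raised and 5.03% lowered. Of 43 cell cycle and DNA replication genes, 1 was raised (0 without treated replicate 3 or without vehicle replicate 2) and 1 lowered (2.33% each). The median was 0.33, and the list took 0.0303% to 0.0382% of counts with vehicle and 0.0512% to 0.0601% at 5 mg/kg, without overlap. Cyclin D1 (Ccnd1) had 0.815, 0.124, 5.29, 1.68 and 0 CPM in the vehicle males and 8.14, 9.70, 31.9 and 25.2 CPM at 5 mg/kg (adjusted p = 0.0737), which was 0.130 to 0.207 when any 1 of 6 males was left out, and thymidine kinase (Tk1) fell by 3.42 (adjusted p = 0.00892). The log2 fold change of Ccnd1 was 4.80 without vehicle replicate 3 in place of 3.55, and that of Tk1 was -4.79 without treated replicate 1. Of 47 apoptosis and p53 genes, 2 were raised (Cidea and Bax, 4.26%) and 1 lowered (Bbc3, 2.13%), with a median of 0.13. Cidea is the droplet fusion protein that is also counted among the lipid droplet genes above. The median was 0.24 without vehicle replicate 2, and without treated replicate 3 there were 1 raised and 0 lowered. Bax had an adjusted p of 0.0639 and Bbc3 of 0.0638, which rose to 0.134 to 0.197 and 0.128 to 0.151 without any 1 of 4 males each. With no filter Bax had 0.168, and in a fit of only the 9 males Bbc3 had 0.225. The log2 fold change of Bbc3 was -4.11 without treated replicate 4 in place of -2.48. Of 35 interferon-stimulated genes, 0 were called, as for Iigp1 at 109.8 ± 51.5 CPM with vehicle (SD, n = 5) and 100.1 ± 13.5 CPM in treated males (SD, n = 4), and the list's median of 0.02 took either sign as mice were left out.

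Of 41 proteasome subunits, 2 were raised (4.88%), Psmb6 at 0.56 (adjusted p = 0.0347) and Psmd4 at 1.18 (adjusted p = 0.0621). The median was 0.15 (0.26 without treated replicate 3). The list took 0.296% to 0.355% of counts with vehicle and 0.420% to 0.531% at 5 mg/kg, without overlap. Psmb6 had an adjusted p of 0.106 without treated replicate 2 and 0.116 without treated replicate 4, and Psmd4 had 0.114 to 0.187 when any 1 of 5 males was left out. Of 34 ER and integrated stress genes, 4 were lowered (11.8%) and 0 raised, with a median of -0.23. Without treated replicate 3, 2 were lowered and 1 raised. Herpud1, of the degradation machinery of the endoplasmic reticulum, had 308, 190.2, 174, 242 and 287 CPM in the vehicle males and 101, 68.6, 35.6 and 102 CPM at 5 mg/kg, with no overlap (log2 fold change -1.64, SE 0.28, adjusted p = 0.000319). The folding enzyme Pdia6 fell by 0.88 (adjusted p = 0.0416), with adjusted p of 0.126 to 0.146 without any 1 of vehicle replicate 1 and treated replicates 2 and 3. Of 23 clock genes, 3 were lowered, with a median of -0.82. Bhlhe40 fell by 1.40 (adjusted p = 0.00829), Per1 had 1 count in the treated males together (adjusted p = 0.0376, or 0.102 without treated replicate 4), and Ciart had 67.96, 94.1, 8.13, 16.6 and 14.98 CPM in the vehicle males and 5.65, 7.72, 0.363 and 3.06 CPM at 5 mg/kg (adjusted p = 0.0842, or 0.138 to 0.198 without any 1 of 5 males). The time of day of sampling is not given in the sources used here.

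**Figure D4:**
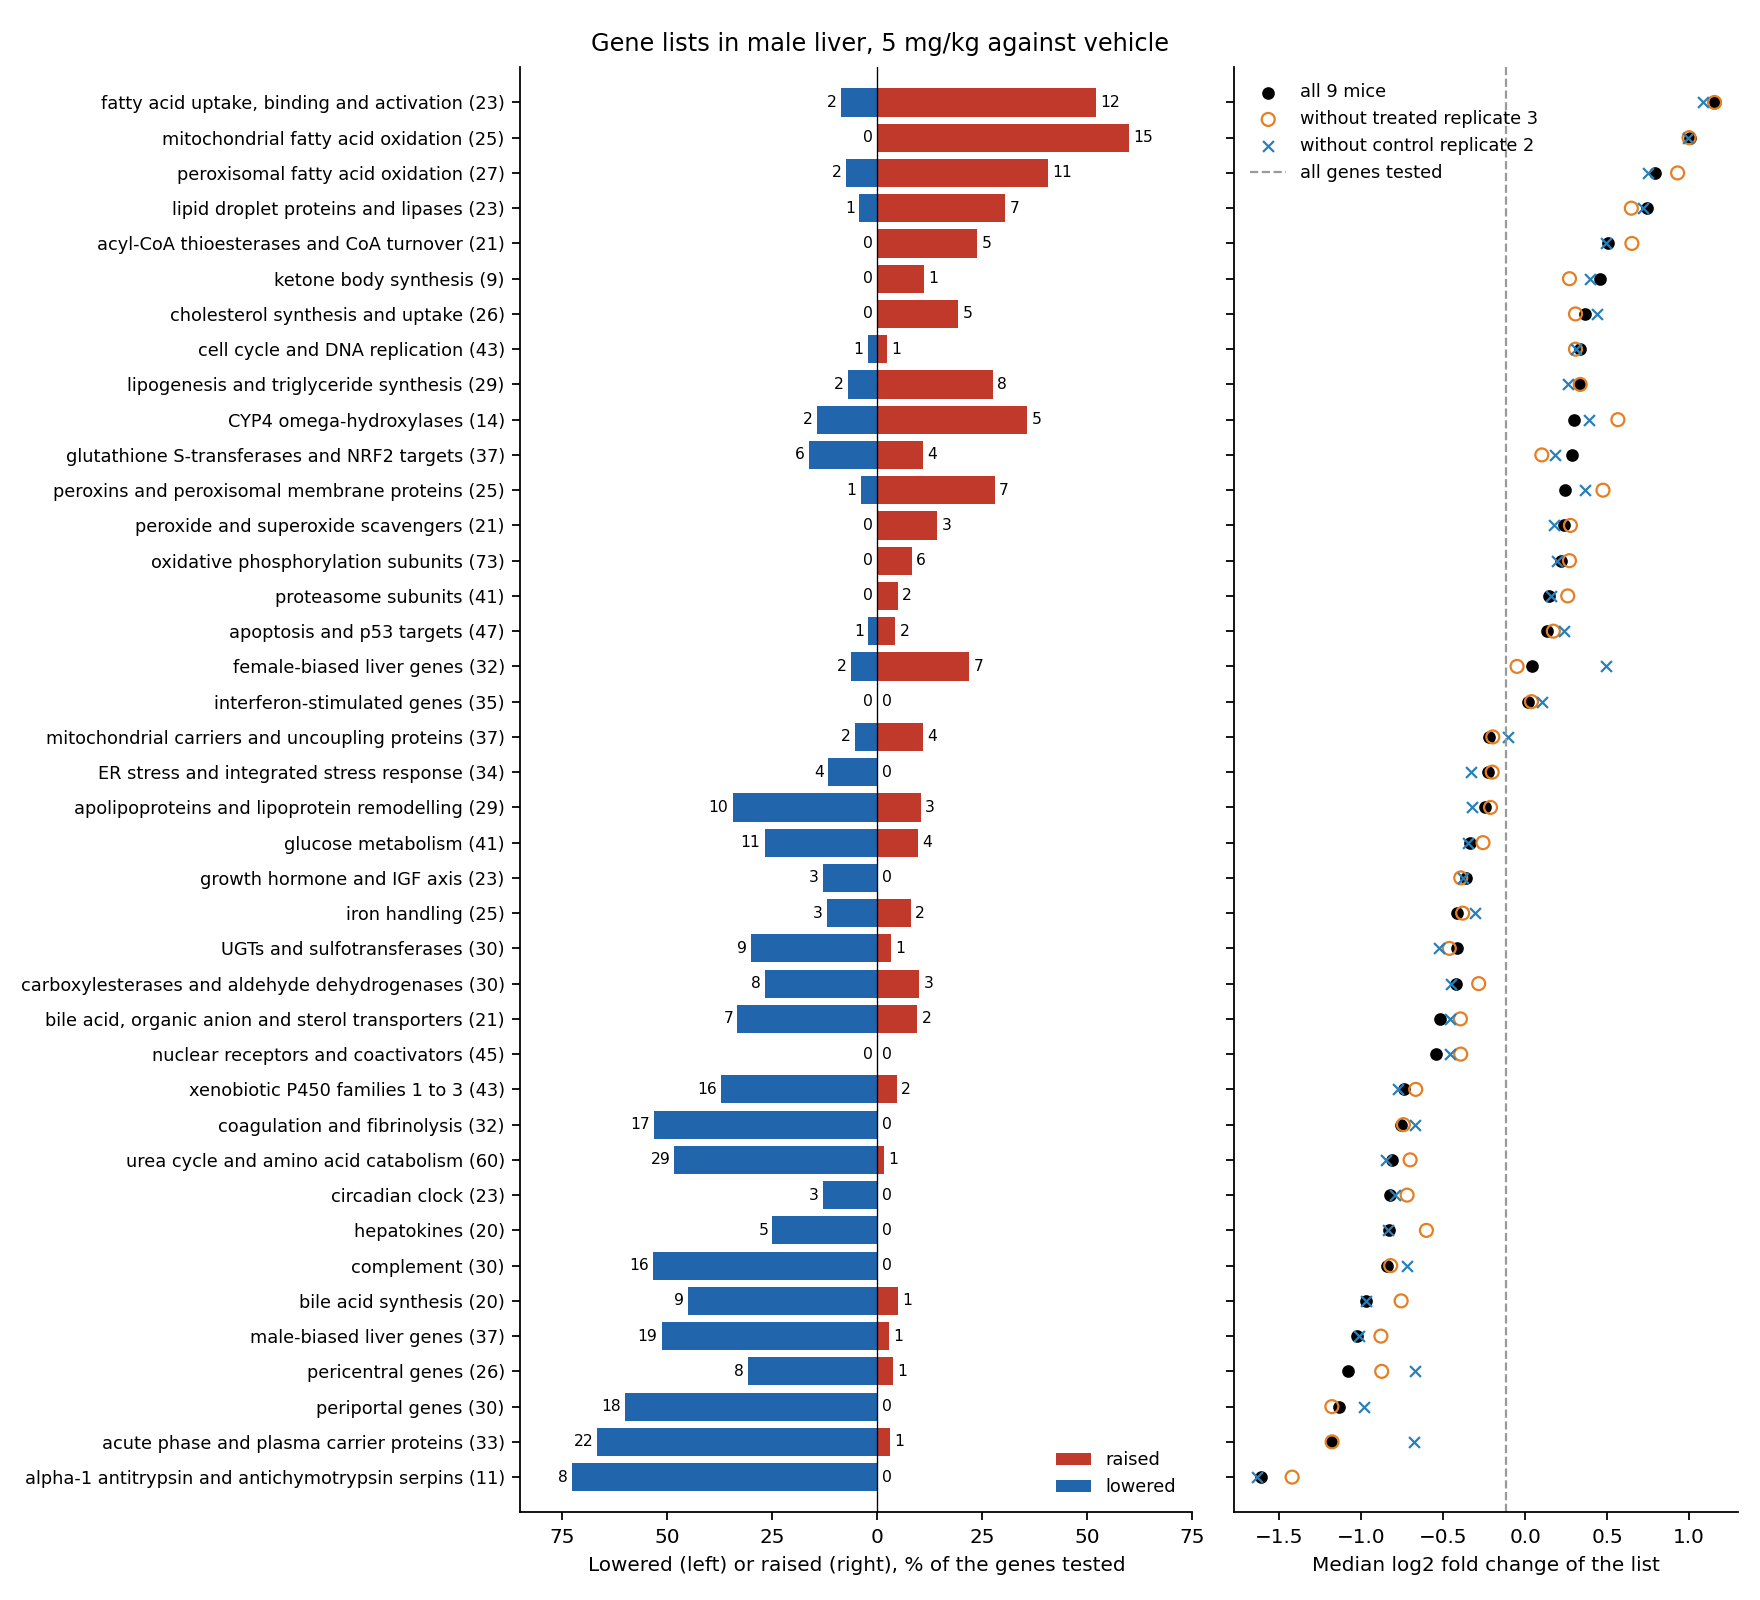
For each of 40 gene lists (number of genes tested in brackets), the left panel shows the percent raised (red, right) and lowered (blue, left) with the number of genes at each bar's end, and the right panel the median log2 fold change in all 9 males, without treated replicate 3 and without vehicle replicate 2, beside a dashed line at the median of all genes (-0.12). Medians of 18 lists lie above that line and 22 below, and the acute phase list moves most without vehicle replicate 2, from -1.19 to -0.68.

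The males at 5 mg/kg were also compared with the 5 males at 0.5 mg/kg, to see where the higher dose went further. At least 1 probe differed for 465 of 11389 genes (4.08%), and for 289 without treated replicate 3. On the most counted probe 412 genes differed (3.62%). In fatty acid oxidation, 6 of 25 mitochondrial genes were higher at 5 than at 0.5 mg/kg and 0 lower, while of 27 peroxisomal genes 4 were higher and 4 lower. Ehhadh stepped up over the doses, with 273 ± 90.8 CPM with vehicle (SD, n = 5), 447 ± 154 CPM at 0.1 mg/kg (SD, n = 5), 2525 ± 1461 CPM at 0.5 mg/kg (SD, n = 5) and 12305 ± 1747 CPM at 5 mg/kg (SD, n = 4), with a log2 difference between the upper doses of 2.28 (adjusted p = 1.98e-05). Cyp4a14 was at 15.2 ± 11.2 CPM with vehicle (SD, n = 5), 37.8 ± 55.7 CPM at 0.1 mg/kg (SD, n = 5), 423 ± 163 CPM at 0.5 mg/kg (SD, n = 5) and 929.6 ± 39.4 CPM at 5 mg/kg (SD, n = 4), and its upper doses were not called different, at 1.14 (adjusted p = 0.482).

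The levels of some genes named for this comparison are given at each dose. Fabp4 was at 20.3 ± 9.17 CPM with vehicle (SD, n = 5), 13.8 ± 6.93 CPM at 0.1 mg/kg (SD, n = 5), 21.9 ± 17.2 CPM at 0.5 mg/kg (SD, n = 5) and 208 ± 85.5 CPM at 5 mg/kg (SD, n = 4), a log2 difference of 3.24 (adjusted p = 3.87e-05) between the upper doses. Ucp2 was at 39.8 ± 15.5 CPM with vehicle (SD, n = 5), 26.6 ± 4.91 CPM at 0.1 mg/kg (SD, n = 5), 45.8 ± 10.5 CPM at 0.5 mg/kg (SD, n = 5) and 216 ± 53.03 CPM at 5 mg/kg (SD, n = 4), with a difference of 2.24 (adjusted p = 6.77e-06). Among lowered genes, Cyp2c29 was at 1311 ± 454 CPM with vehicle (SD, n = 5), 1519.9 ± 121 CPM at 0.1 mg/kg (SD, n = 5), 1107 ± 234 CPM at 0.5 mg/kg (SD, n = 5) and 226 ± 61.9 CPM at 5 mg/kg (SD, n = 4), with a difference of -2.29 (adjusted p = 8.49e-07). Hsd11b1 and C8b differed by -2.36 (adjusted p = 8.49e-07) and -1.65 (adjusted p = 1e-05). Of 20 bile acid synthesis genes, 10 were lower at 5 than at 0.5 mg/kg, and of 37 male-biased genes 22 were lower, with 0 higher in either list. Of 33 acute phase and carrier genes, 6 were lower.

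The response of males was set against that of 4 females at 5 mg/kg and 5 vehicle females in a fit of all 37 mice. The females were 11 weeks old at the start and received 53 to 65 doses, and were dosed through mating, pregnancy and lactation, so sex cannot be told apart from age, length of dosing, pregnancy and lactation. The response differed for 102 of 13004 genes (0.784%), and for 187 and 205 without male treated replicate 2 or 4. On the most counted probe, 78 of 11389 genes differed (0.685%). The peroxisomal and mitochondrial lists had 3 of 27 and 0 of 25 such genes.

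Cyp4a12a stood apart among the called differences, in that its log2 fold change was 0.10 among males but 7.65 among females, a difference of -7.55 (adjusted p = 5.51e-07). Cyp2b9 rose by 3.91 in males and had -0.97 in females, a difference of 4.89 (adjusted p = 3.06e-06). Slc46a3 and Ttc39c fell in males and were near 0 in females, with differences of -4.77 (adjusted p = 4.76e-05) and -2.60 (adjusted p = 5.3e-05). Gstp1 had -1.27 in males and 0.98 in females, a difference of -2.26 (adjusted p = 0.000134). By comparison, Ehhadh, Cyp4a14 and Plin2 had differences of 0.48 (adjusted p = 0.732), 0.04 (adjusted p = 1) and 0.70 (adjusted p = 0.504), none of them called.

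**Figure D5:**
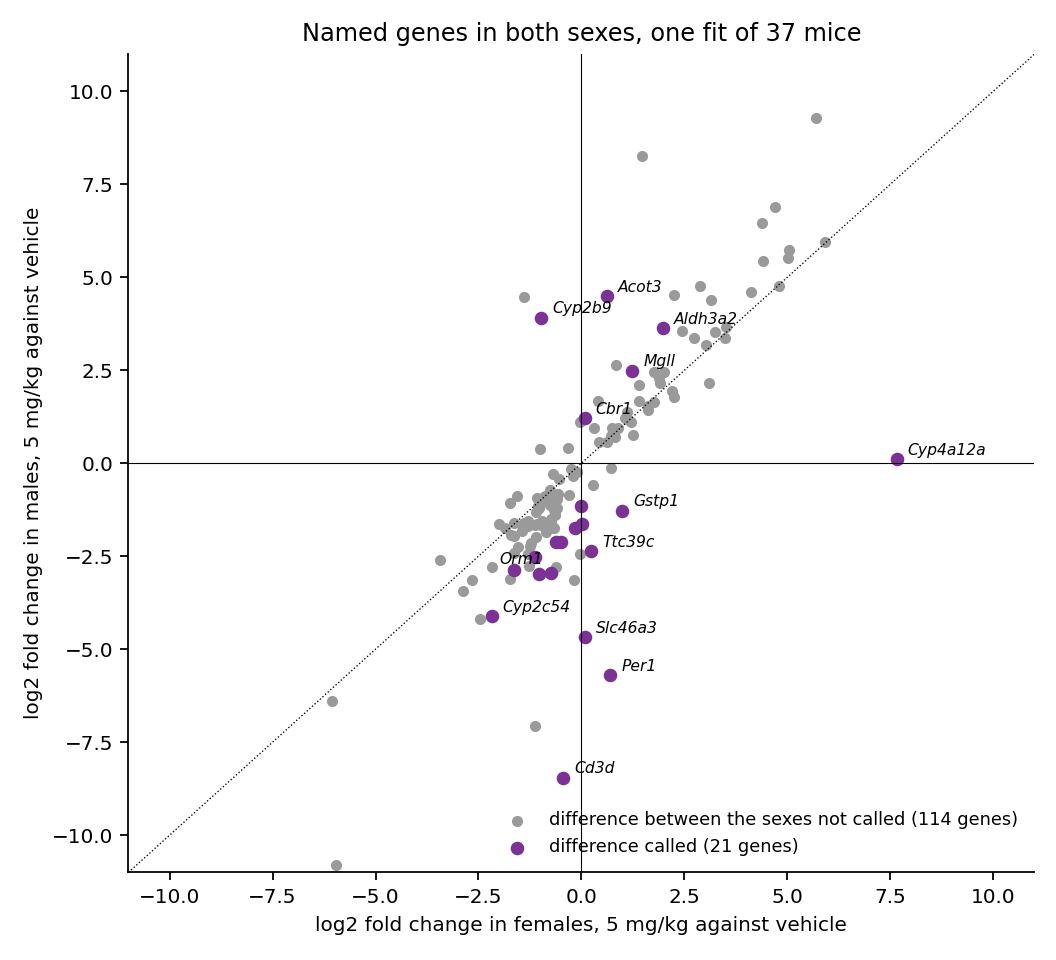
Log2 fold change at 5 mg/kg against vehicle in males (vertical axis) and in females (horizontal axis) of the 135 genes named by rule, from a fit of 37 mice. Purple points are the 21 genes whose difference between the sexes was called, grey points the other 114, and the dotted line marks equal change, from which Cyp4a12a lies far to the right and Cyp2b9 far above.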

How the data were processed

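TempO-Seq probe counts were deposited as raw counts of 30146 probes (21450 genes) in 37 mice. The authors made them with bcl2fastq 2.17.1.14 and Bowtie, per the submitters' processing notes (build not given in the sources used here), and had removed 3 of 40 libraries for low depth or few probes. Total counts of the 9 males ran from 2101495 to 9365709. PCR without molecular identifiers means that counts are not independent molecules.

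Groups came from the labels for sex and dose, and replicate numbers follow their order and pair nothing. All 19 males were fitted with edgeR 4.0.16 (R 4.3.3, limma 3.58.1) by its quasi-likelihood test after TMM scaling and filterByExpr, at an adjusted p of 0.10 (Benjamini-Hochberg), on the contrast of 5 mg/kg with vehicle. A second contrast set 5 against 0.5 mg/kg, and an interaction with sex was fitted over all 37 mice. A gene was represented by its most counted probe, and genes with several probes are counted where at least 1 is called. Library measures were compared with exact permutation tests (smallest p 0.0159). The scripts were tested on counts simulated from these males, with 200 probes changed by a log2 fold change of 2. Of these, 70 were recovered at the same threshold, with 3 false calls. A gene that was not called may thus still have changed.

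Genes were named by rule: the 12 largest rises and 12 largest falls among called genes without overlap and with a group mean of at least 50 CPM, up to 3 called genes of smallest adjusted p per list (or the highest in controls), the PPARs and Rxra, 5 genes each from the other contrasts, hepatocyte markers and called markers of other cells. Other genes are given for their known roles, chosen after values were seen. The members and lists were chosen with earlier results of these data known. Alternatives were DESeq2 1.42.0 and its size factors, other filters, a robust fit, only the 9 males, all 37 mice, summed probes, thinned counts, adjusted p under 0.05, and leaving out each mouse. Leaving mice out of the interaction, and the lists without treated replicate 3 or vehicle replicate 2, were chosen after seeing the data. Promoter sequences were matched by symbol to RefSeq (GRCm38.p6) for 8814 of 11389 genes tested. One named gene is not reported here.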

Additional observations from a re-analysis of the deposited data

Results flagged for a closer look

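In 20 of 270 groups of values, 1 mouse lay far from the others of its group. A chance rate of about 1 of 20 groups would hold only for normally spread values. Some groups here were flagged for a sole value above 0, and the genes share the same mice. The number is therefore not set against chance. In vehicle replicate 2 the flagged values were Orm1 (1788 CPM), Itih4 (933 CPM), Trf (5169.5 CPM) and F7 (163 CPM), all above the other vehicle males, and Vnn1 at 1.37 CPM where the others were at 0. In vehicle replicate 3 they were Serpina4-ps1 (338 CPM) and Cdo1 (451 CPM), and Serpina1a at 899.99 CPM. Among the other vehicle males they were Acot3 in replicate 1 (7.80 CPM), Aqp3 in replicate 4 (0.129 CPM, a single count) and Anxa13 in replicate 5 (27.1 CPM).

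In treated replicate 1 they were Pigr (43.4 CPM), Gm10681 (5.88 CPM), Serpina4-ps1 (0.226 CPM, a single count) and Ces1c at 1101 CPM. In treated replicate 2 they were Cyp2c54 (397 CPM), Decr1 (835 CPM), Slc46a3 (1.15 CPM) and Per1 (0.104 CPM, a single count), and in treated replicate 3 Cdo1 at 58.8 CPM.

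The response at 5 mg/kg differed between males and females for 21 of the 135 genes named by rule (quasi-likelihood interaction of edgeR). The male minus female log2 fold change was above 0 for Cyp2b9 at 4.89 (adjusted p = 3.06e-06), Acot3 at 3.87 (adjusted p = 0.0403), Aldh3a2 at 1.65 (adjusted p = 0.00873), Mgll at 1.25 (adjusted p = 0.0256) and Cbr1 at 1.14 (adjusted p = 0.026).

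It was below 0 for Cyp4a12a at -7.55 (adjusted p = 5.51e-07), Slc46a3 at -4.77 (adjusted p = 4.76e-05), Ttc39c at -2.60 (adjusted p = 5.3e-05), Gstp1 at -2.26 (adjusted p = 0.000134), Sult1a1 at -1.96 (adjusted p = 0.00376) and Cyp2c29 at -1.38 (adjusted p = 0.0165). The same direction was seen for Herpud1 at -1.64 (adjusted p = 0.024), Akr1d1 at -1.52 (adjusted p = 0.0252), Apoa1 at -1.13 (adjusted p = 0.0267), Hsd11b1 at -1.23 (adjusted p = 0.0307) and Cyp2c54 at -1.93 (adjusted p = 0.062).

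Differences nearer the threshold or on few counts were those of C8a at -1.60 (adjusted p = 0.0643), Apom at -1.61 (adjusted p = 0.0736), Orm1 at -2.22 (adjusted p = 0.0912), Per1 at -6.39 (adjusted p = 0.0643) and Cd3d at -8.02 (adjusted p = 0.027). Cd3d had 0 counts in every treated male and Per1 1 count in all of them, so the size of their differences is no bound. Vehicle replicate 2 enters each male value.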

How the results depend on the processing

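Counts of called genes moved more than their directions. At an adjusted p under 0.05, 629 genes were called in place of 948, 278 in place of 465 for 5 against 0.5 mg/kg, and 60 in place of 102 for the interaction with sex. With all 37 mice in the fit there were 2061 genes (782 raised and 1577 lowered probes in place of 365 and 755), and 1456 for 5 against 0.5 mg/kg. DESeq2 raised 675 probes, and called 983 genes for 5 against 0.5 mg/kg and 232 for the interaction. Leaving out each vehicle male or male at 5 mg/kg in turn (and no male at 0.5 mg/kg) gave 712 to 882 called genes. Probes numbered 278 to 313 raised and 547 to 751 lowered, and genes for 5 against 0.5 mg/kg numbered 289 to 472. For the interaction, the vehicle and 5 mg/kg mice of both sexes were left out in turn, which gave 70 to 205 genes. The lowest of 5 against 0.5 mg/kg was without treated replicate 3. Of the called probes 32.59% were raised, against 45.54% with size factors of DESeq2, 43.1% by DESeq2 and 40.35% with only the 9 males. The cause of these shifts was not tested. Of 2420 values of the named genes under 18 settings, 2360 kept their side of the threshold, 59 lost it, and 1 gained it (Ppara with probes summed). No value called in the reported fit changed direction, and 3 that were not called did (Cyp4a12a, Iigp1 and Pparg, each when 1 mouse was left out). Medians of 43 of 49 lists kept their sign, and those of Kupffer cell, adipocyte, cholangiocyte, neutrophil, female-biased and interferon genes did not. No paired analysis was possible because the labels give no replicate numbers. Depth limits genes with few counts, most of all in treated replicate 3. With the counts of every male thinned to a total of 2101495, 749 genes were called in place of 948. Probes then numbered 337 raised and 555 lowered, in place of 365 and 755. Among genes called in the reported fit, 45 lowered and 17 raised genes had 0 counts in a whole group.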

Other observations

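Some called genes outside the rule for naming, chosen after their values were seen, were nearly absent in vehicle males. Fabp3, the fatty acid binding protein of heart and muscle, had 0, 0, 0, 0.258 and 0 CPM in the vehicle males and 38.2, 25.9, 26.5 and 48.4 CPM at 5 mg/kg (adjusted p = 3.72e-06). Sptlc3, a subunit of the enzyme that starts sphingolipid synthesis, had 0 counts in the vehicle males and 800 in the treated males. Against a floor of 3 counts over the group it was 514-fold higher, per total count before TMM scaling. Ucp3, the uncoupling protein of muscle, had 0, 0.622, 0, 0 and 0 CPM in the vehicle males and 6.11, 10.8, 7.62 and 10.6 CPM at 5 mg/kg, and Pdk4, the kinase that restrains pyruvate dehydrogenase, had 1.28, 0, 2.32, 0 and 0 CPM in the vehicle males and 25.3, 23.7, 31.6 and 39.8 CPM at 5 mg/kg. For each of these genes every treated male was above every vehicle male.

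Lipoprotein lipase (Lpl), which is little expressed in adult liver, had 4.42, 1.12, 5.55, 6.06 and 4.22 CPM in the vehicle males and 32.8, 60.8, 33.4 and 42.6 CPM at 5 mg/kg (log2 fold change 3.31, SE 0.73, adjusted p = 0.00484), and the phospholipid transfer protein Pltp had 2.09, 6.59, 2.19, 1.93 and 0 CPM in the vehicle males and 33.2, 10.5, 35.2 and 22.3 CPM at 5 mg/kg (log2 fold change 3.29, SE 0.74, adjusted p = 0.0055). Crat, the carnitine acetyltransferase, had 2.91, 1.87, 0, 2.84 and 1.63 CPM in the vehicle males and 45.2, 35.03, 43.5 and 35.4 CPM at 5 mg/kg (log2 fold change 4.41, SE 0.89, adjusted p = 0.00178). Cyp2a22 had 0.233, 0, 0.129, 0.129 and 0 CPM in the vehicle males and 14.02, 12.6, 14.2 and 8.75 CPM at 5 mg/kg (adjusted p = 0.00277), and lies among close Cyp2a paralogs. Hao2, a peroxisomal hydroxyacid oxidase, had 0.233, 0.249, 0, 2.84 and 0.136 CPM in the vehicle males and 0.452, 16.2, 15.2 and 30.5 CPM at 5 mg/kg, with treated replicate 1 inside the vehicle range (adjusted p = 0.044, or 0.103 without vehicle replicate 2). Cyp39a1, an oxysterol hydroxylase, went the other way, with 9.54, 4.73, 3.35, 5.28 and 12.1 CPM in the vehicle males and 0.452, 0.104, 0 and 0 CPM at 5 mg/kg.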
